A study of Equus caballus with 23 samples.

Results

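In the middle gluteal muscle of Arabian horses, 46 of 11230 genes had more transcript after exercise than at rest in every one of the 11 horses that were biopsied at both times. The rise in these genes was mostly small, with a median of 0.43 on the log2 scale (1.35-fold) over the 46 genes, and it ranged from 0.03 to 2.10. The genes were chosen by the difference in log2(CPM + 0.5) between the biopsies of each horse, after exercise minus rest, where CPM is the count of a gene per 1000000 counts of its library. A gene was kept when this difference was above 0 in all 11 horses. The 100 genes with the highest mean CPM over the 12 rest libraries were left out of the 11330 genes in the deposited table, which leaves the 11230. Because the same difference chose the genes, the sizes of their rise are given as a description, with no test.

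Skeletal muscle changes its transcription in the hours that follow a bout of exercise. Calcium release, energy demand, circulating hormones such as glucocorticoids and mechanical load each act on transcription factors in the muscle fiber, and transcripts for metabolism, stress protection and remodeling are among those that respond. A biopsy also holds blood vessels, connective tissue, nerve and resident immune cells, so that a higher level in bulk RNA may come from any of these cells.

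The horses were adult geldings and mares owned by endurance riders, listed as Arabian, with an Arabian cross among them according to the study's methods. Needle biopsies were taken at rest and again a few hours after an aerobic ridden exercise test of walk, trot and canter, on alternate sides of the muscle. The labels give 12 rest libraries and 11 libraries from after exercise, which is 1 horse more at each time than the methods describe. Some horses had myofibrillar myopathy (MFM), a disease with desmin aggregates in muscle fibers, and the others were healthy controls. The labels do not state which, so all horses were treated as 1 group. Rest always came first, and the effects of exercise, of the earlier biopsy and of the time of day cannot be told apart.

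Horses were numbered 1 to 12 in the order of their labels, and horse 11 had a rest library alone. Total counts ranged from 22528109 to 29452440 at rest (median 25574634, 12 libraries) and from 23048221 to 26388085 after exercise (median 23980773, 11 libraries). At these totals 3 counts were equal to 0.102 to 0.133 CPM, which covers counting error only. A count of 10 or more in all 22 libraries of the paired horses was reached by 44 of the 46 genes. The lowest count of any of the 46 genes was 2, in a rest library.

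Genes are listed by Ensembl identifier, and the files do not pair the identifiers with names. A reference table of horse genes from RefSeq matched 0 of the 11330 identifiers. Letters stand in place of digits in 2 identifiers of the table, and 0 of these are among the 46. The 46 genes are therefore referred to by their rank, from 1 for the largest median rise over horses to 46 for the smallest. The 2 genes given by identifier are the gene with the largest median rise and, of the others, the gene with the largest rise in its lowest horse. What these genes encode was not determined.

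Genes that went the other way in every horse were more numerous. In all 11 horses 113 genes were lower after exercise, 1.01% of the 11230 genes, whereas the 46 genes were 0.41%. This balance depended on how libraries were scaled. With TMM-normalized library sizes in place of total counts, 82 genes were higher and 92 were lower in every horse, and with the size factors of DESeq2 87 were higher and 92 were lower. Of the 46 genes, 43 were among the 82 and 43 were among the 87. The lists therefore share most of the 46 genes (93.5%), but only 52.4% of the list from TMM and 49.4% of the list from DESeq2 size factors. Among the 100 abundant genes that were left out, 1 was higher in every horse and 0 were lower in every horse.

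Only a few of the 46 genes rose by a large amount. The median rise was above 1 (2-fold) in 6 genes, from 0.5 to 1 in 14 genes and at or under 0.5 in 26 genes. The median over the 46 genes of the mean rise was 0.47, and the same median over all 11330 genes was -0.04. No gene (0 of 46) was at least 2-fold higher in every horse. The lowest horse stood above 0.3 in 6 genes and under 0.1 in 30 genes, so that for most of the list membership rested on a small difference in at least 1 horse. Which cells the transcripts came from is not known, and in bulk tissue at rest fewer cells of a type and less RNA per cell cannot be told apart.

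**Figure D1:**
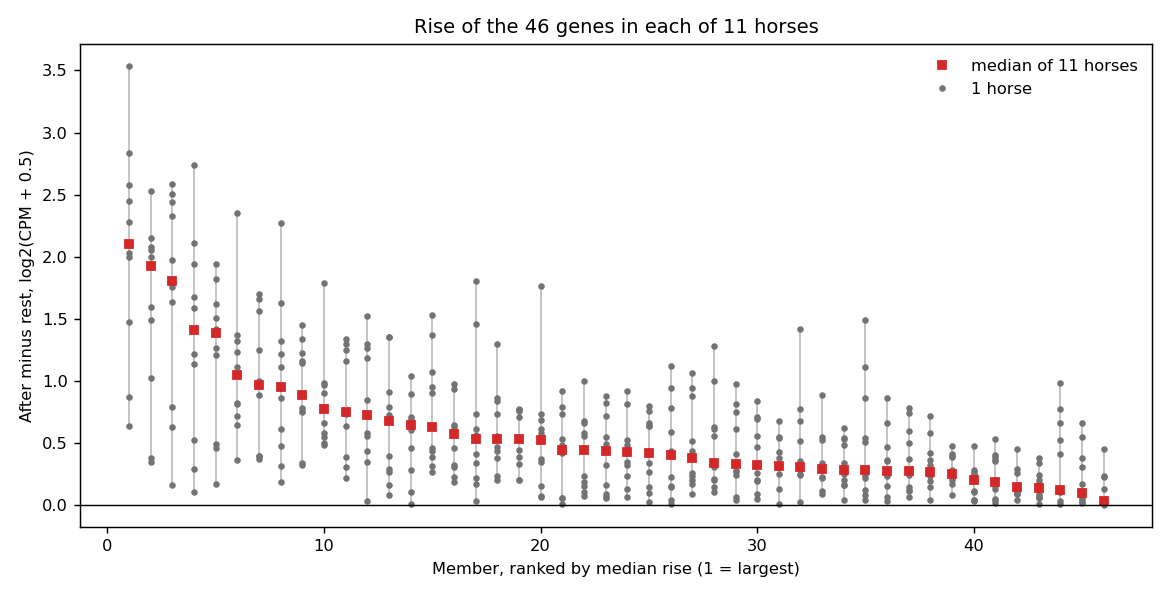
Difference in log2(CPM + 0.5), after exercise minus rest, for each of the 46 genes (x axis, ranked by median rise) in 11 horses. Each dot is 1 horse, the square is the median of the 11 horses and the line runs from the lowest to the highest horse. Medians fall from 2.10 to 0.03, and the lowest horse lies close to 0 for most genes.

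ENSECAG00000012118 had the largest median rise. At rest its level was between 1.50 and 8.28 CPM with a median of 2.95 CPM in the 11 paired horses, and after exercise it was between 4.88 and 28.1 CPM with a median of 15.6 CPM. Levels after exercise were above the highest rest level in 9 of 11 horses, and the groups overlapped through horses 3 and 7, which had the lowest levels after exercise. The rise had a median of 2.10 and ranged from 0.64 in horse 3 to 3.54 in horse 6. Horse 12 had the highest rest level and a rise of only 0.87, whereas horse 6, at 1.62 CPM, was among the lowest at rest. In horse 11, which has no difference, the rest level was 1.81 CPM, within the range of the other rest libraries. The gene had between 42 and 738 counts per library in the paired horses.

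ENSECAG00000008270, rank 10, had a smaller rise, with a smaller absolute range between horses. Relative to its mean the rise was no more even than that of ENSECAG00000012118, with a ratio of standard deviation to mean of 0.452 and 0.404. Its level was between 16.8 and 39.5 CPM at rest (median 25.6 CPM) and between 23.6 and 75.1 CPM after exercise (median 50.4 CPM). After exercise 7 of 11 horses were above the highest rest level, and the groups overlapped through horses 3, 5, 7 and 8. The rise had a median of 0.77, with 0.48 in horse 8 as the lowest and 1.79 in horse 6 as the highest. Horse 6 stood apart from the other 10 horses, in which the rise did not exceed 0.98. The rest library of horse 11 had 42.8 CPM, above all 11 paired rest libraries and above the levels after exercise of horses 3, 5, 7 and 8. For this gene the horse with no second biopsy was therefore as high at rest as some horses were after exercise.

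**Figure D2:**
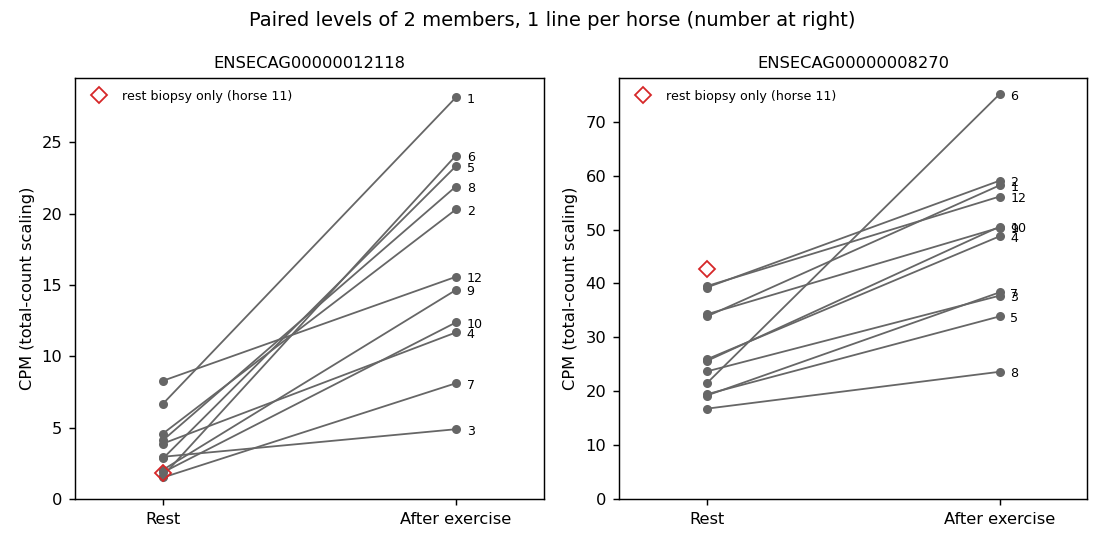
Level of ENSECAG00000012118 (left) and ENSECAG00000008270 (right) in CPM at rest and after exercise. Each line joins the biopsies of 1 of 11 horses, with the number of the horse at the right, and the open diamond is the rest library of horse 11. Every line rises, and horse 6 has the steepest rise on the log2 scale in both genes.

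The other 5 genes with a median rise above 1 were uneven between horses. The gene of rank 2 had 2.40 to 20.3 CPM at rest (median 5.81 CPM) and 6.40 to 45.0 CPM after exercise (median 22.1 CPM), and its rise ranged from 0.35 in horse 8 to 2.53 in horse 6. The gene of rank 3 had 0.0818 to 5.98 CPM at rest (median 1.05 CPM) and 1.36 to 13.7 CPM after exercise (median 4.76 CPM). Its lowest rest value rests on 2 counts and lies under the floor of 3 counts, so the rise of that horse depends on the added 0.5 CPM. The gene of rank 4 rose by 0.11 in horse 12 and by 2.74 in horse 8, with a median rise of 1.41. The gene of rank 5 had a median of 1.96 CPM at rest and 5.74 CPM after exercise, and 9 of 11 horses were above its highest rest level. The gene of rank 6 rose from a median of 4.54 CPM to 9.94 CPM. The largest rise of these 5 genes was in horses 6, 1, 8, 3 and 2, a different horse for each gene, and the smallest was in horses 8, 9, 12, 9 and 5.

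The spread of the rise between horses was larger in genes with a larger rise, which the rule favors, since a gene with a wide spread is above 0 in all horses only if its mean is also large. The standard deviation over the 11 horses had a median of 0.32 over the 46 genes and 0.25 over all genes. It was 0.76 in the 6 genes with a median rise above 1 and 0.30 in the other 40. Across the 46 genes, the standard deviation and the mean of the rise had a Spearman rho of 0.907, a description over genes that share the same 22 libraries. Over the 11230 genes the standard deviation and the absolute mean difference had a rho of 0.488. Relative to the mean rise the spread was less variable, with a median ratio of 0.644 and a range from 0.404 in ENSECAG00000012118 to 1.32 in rank 46. A gene with a ratio above 1 had a spread between horses larger than its mean rise, although no horse was below 0. The ratio was above 1 in ranks 45 and 46.

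Transcript levels were about as variable between horses after exercise as before. The standard deviation of log2(CPM + 0.5) over horses had a median of 0.35 at rest and 0.37 after exercise in the 46 genes, compared with 0.25 at both times over all genes. It was larger after exercise than at rest in 26 of the 46 genes (56.5%) and in 48.7% of all genes. Levels at rest and after exercise were mostly positively correlated over horses. Single genes of the 46 ranged from r = -0.06 in rank 7 to 0.95 in rank 27, and the order of horses was not measured. The level of a gene at rest and its level after exercise had a median correlation of 0.63 over the 11 horses in the 46 genes, with 45 of 46 above 0, and of 0.53 over the 11230 genes, with 92.6% above 0. The rise and the level at rest had a median correlation of -0.44 in the 46 genes and -0.52 over the 11230 genes, and the rise and the level after exercise had 0.50 and 0.51. These correlations share the rest or after exercise value with the rise and are given as a description. In this respect the 46 genes were close to the rest of the table.

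Although each of the 46 genes was higher in every horse, differences between horses were large enough for the groups to overlap. The lowest level after exercise exceeded the highest level at rest in 0 of the 46 genes and in 0% of all 11330 genes. With TMM-normalized library sizes, 2 genes met this criterion, both among the 46, and these were the only ones of 11330. The number of horses whose level after exercise was above all paired rest levels had a median of 4.5 over the 46 genes and 0 over all genes, and reached 10 of 11 in 1 of the 46. In 19 of the 46 genes and in 0.556% of all genes this was so in more than 5 of the 11 horses, a measure that the choice of genes in part fixed.

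The rest library of horse 11 entered the choice only through the mean CPM that left out the 100 abundant genes, and it was not used in any difference. It was nearer to the median of the paired rest libraries than to the median after exercise for 34 of the 46 genes (73.9%), compared with 44.3% of all genes. It was below all 11 libraries from after exercise for 26 of the 46 genes (56.5%) and for 18.6% of all genes. With TMM-normalized library sizes these counts were 34 and 22 of 46, beside 45.7% and 13.0% of all genes. The paired libraries that horse 11 is set against are those that chose the genes, so the choice in part fixed these shares. For the 113 genes lower in every horse the reading depended on the scaling. Horse 11 was nearer to the rest median for 41 of them (36.3%), a smaller share than that of all genes, and for 59 (52.2%) with TMM-normalized library sizes, a larger share than that of all genes. Horse 11 had a TMM factor of 0.908, lower than in all but 1 of the paired rest libraries (0.893 to 1.23), and the part of this in the counts was not tested beyond the TMM values. For the remaining 12 of the 46 genes, ENSECAG00000008270 and rank 4 among them, horse 11 was at rest nearer to the level after exercise. This is a single horse, and how far another resting horse would differ was not tested.

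In their median level at rest the 46 genes were close to all 11330 genes, which here include the 100 abundant genes. The mean CPM of the 46 genes over the 12 rest libraries had a median of 9.28 (quartiles 2.73 and 17.6). That of all genes had a median of 9.23 (quartiles 3.46 and 24.4), and the 46 values ranged from 0.924 to 155 CPM. CPM is not corrected for transcript length, so these are shares of the counts and not an order of transcript number between genes. When the 11230 genes were divided by their mean rest CPM into 5 bins of 2246 genes, from the lowest to the highest, these held 12, 7, 10, 12 and 5 of the 46 genes. In the top bin, which began at 30.0 CPM and held the fewest, the 5 genes had mean rises from 0.11 to 0.42. The horse to horse spread of all genes was also smallest there, with a median standard deviation of 0.17 compared with 0.36 in the lowest bin.

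Large rises were found among genes with low counts. The 6 genes with a median rise above 1 had mean rest levels from 1.40 to 7.77 CPM with a median of 3.17 CPM, and the other 40 had a median of 10.5 CPM. Across the 46 genes the rest level and the mean rise had a Spearman rho of -0.43. Among those of the 46 genes with at least 12.9 CPM, the lower limit of bin 4, the highest mean rise was 0.99, in rank 8. The part of counting error in this relation was not tested.

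**Figure D3:**
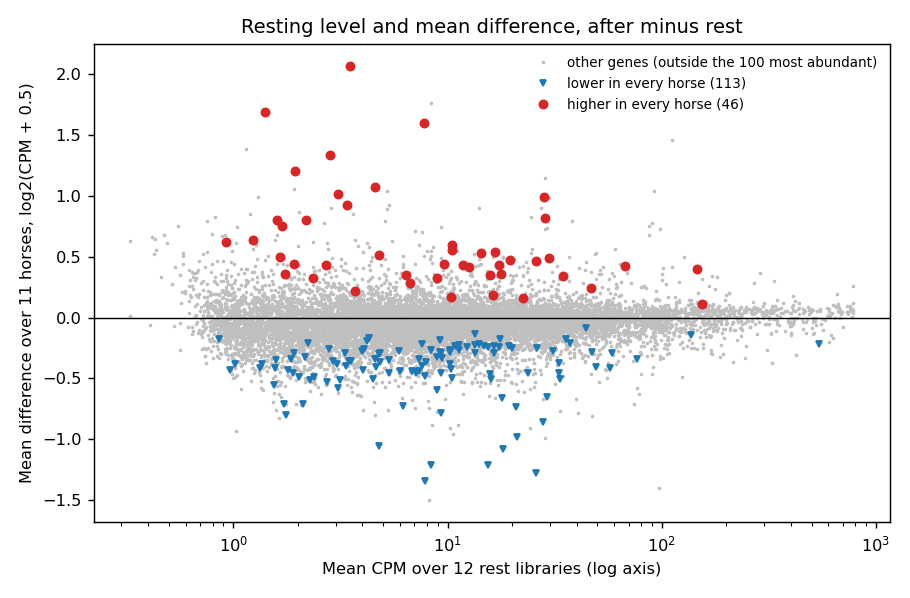
Mean CPM over the 12 rest libraries (x axis, log scale) and mean difference over 11 horses in log2(CPM + 0.5), after exercise minus rest, for 11230 genes. Red circles are the 46 genes higher in every horse, blue triangles the 113 genes lower in every horse and gray dots all others. The red circles span 0.924 to 155 CPM, and the highest of them lie below 10 CPM.

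The exercise term of the paired model used the same differences that chose the genes, which largely fixed its outcome, so nothing is read from its calls. In edgeR's quasi-likelihood test with horse as a block, 44 of the 46 genes were called higher after exercise at an adj. P of 0.05, where 2.76% of all genes were, and the 2 others were ranks 45 and 46. With no block for horse, so that the pairing of the biopsies was not used, 28 of the 46 genes and 0.618% of all genes were called higher.

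Levels that differ between horses were examined in the same model. The horse terms are tested against the spread of the differences after minus rest, on which the genes were chosen, so the count is not independent of the choice. In this test, with all horse terms tested together, 22 of the 46 genes (47.8%) differed between horses at an adj. P of 0.05, compared with 34.6% of all genes. Among the 6 genes with a median rise above 1, 3 differed between horses. ENSECAG00000008270 differed between horses (adj. P = 0.00818 by edgeR's quasi-likelihood test of the horse terms), and its rest levels spanned 16.8 to 39.5 CPM. ENSECAG00000012118 did not pass the threshold in that test (adj. P = 0.156), with rest levels from 1.50 to 8.28 CPM. The 46 genes thus include genes with horse differences called and genes without. The replicates in these tests are separate horses, each with 2 biopsies.

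The size of the rise varied moderately between horses, in each of which all 46 genes were higher by the rule. With total-count scaling, the median rise of the 46 genes in a single horse was between 0.36 in horse 8 and 0.56 in horse 4. The median difference of all genes was between -0.13 in horse 8 and 0.03 in horse 2. Relative to this median in the same horse, the rise was lowest in horse 3 (0.35) and highest in horse 1 (0.57), so both ends of the order changed. Horse 8 had the smallest rise for 9 of the 46 genes and horse 12 for 6, and horse 6 had the largest rise for 8 and horse 1 for 7. Each of the 11 horses was the lowest for at least 1 gene and the highest for at least 1 gene. The summed level of the 46 genes, whose direction the rule fixed, was 699 CPM at rest and 902 CPM after exercise in horse 3, the lowest at both times, and 930 and 1474 CPM in horse 1, the highest after exercise.

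The level of all genes moved with the horse, and this bears on a rule that requires a difference above 0. In horses 1, 5, 6 and 8 the median difference of all 11330 genes was -0.10, -0.12, -0.10 and -0.13. Of these genes, 34.1%, 28.4%, 40.4% and 26.8% were higher after exercise. In the same 4 horses, the TMM factor after exercise divided by that at rest was 0.916, 0.913, 0.921 and 0.900. It was between 0.956 and 1.03 in the other 7 horses. Relative to the median of all genes in that horse, the median rise of the 46 genes was 0.57 in horse 1, 0.51 in horse 5, 0.57 in horse 6 and 0.49 in horse 8. In the other 7 horses it was between 0.35 in horse 3 and 0.54 in horse 7, with 0.37 in horse 10 and 0.39 in horse 12. The shifts of all genes were measured with total-count scaling. TMM centers the bulk of the genes by construction, and with it the median difference of the 11230 genes was 0.01, 0.00, 0.01 and 0.01 in horses 1, 5, 6 and 8, and 51.3%, 49.8%, 50.8% and 51.6% of them were higher.

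Genes were also chosen by the same rule from 10 horses and described in the horse left out. The genes that are higher in the horse left out are then always the 46, and the share depends on how many other genes had that horse as their exception. The shares therefore restate these numbers of exceptions and are given as a description, with no support drawn from them. Of the genes chosen from 10 horses, the share higher in the horse left out had a median of 78.0% over the 11 horses. The median share of all genes, here the 11230 genes, was 48.4%. It ranged from 56.8% in horse 12, where 46 of 81 genes were higher, to 90.2% in horse 9, where 46 of 51 were. Horse 6 was close to horse 12, with 46 of 80 genes (57.5%). In every horse left out the share was above that of all genes in the same horse, with the smallest gap in horse 12 (48.4% of all genes) and a wide one in horse 8 (69.7%, 26.5% of all genes). The median difference of the chosen genes in the horse left out was 0.06 in horse 12 and 0.10 in horse 6, and it was 0.41 in horse 2. The order of the horses depended on the scaling, except for horse 12 as the lowest. Under TMM scaling the share was 52.2% in horse 12 (48.0% of all genes), 65.1% in horse 9 (46.9% of all genes), which was then next to the lowest, and 70.1% in horse 6 (50.8% of all genes), and the highest was 90.1% in horse 1.

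**Figure D4:**
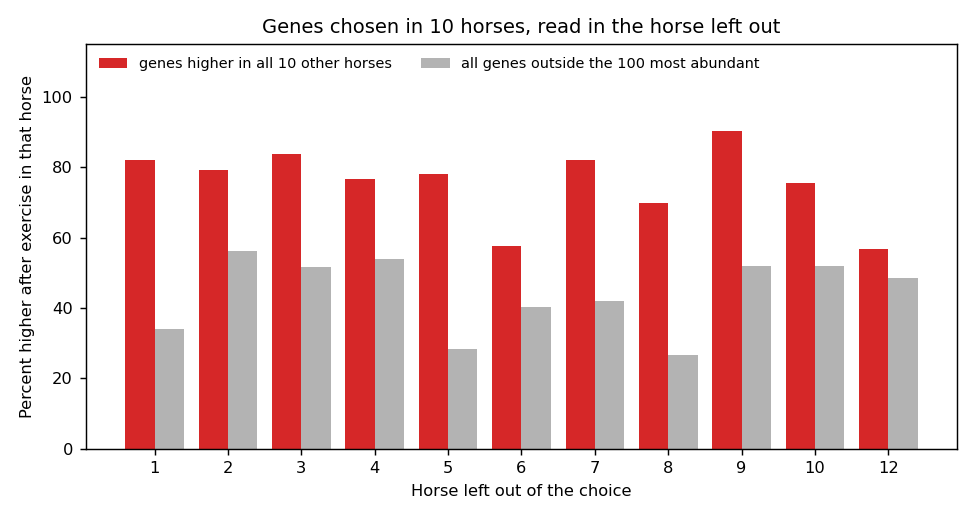
Percent of genes higher after exercise in a horse that was left out of the choice (x axis, horse number). Red bars are the genes that were higher in all 10 other horses and gray bars are all genes outside the 100 most abundant. With total-count scaling, red bars are between 56.8% in horse 12 and 90.2% in horse 9, each above its gray bar, and with TMM-normalized library sizes horse 9 is at 65.1%.

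With total-count scaling, horses 6 and 12 most often kept a gene off the list. Besides the 46 genes, 177 genes were higher in 10 of the 11 horses, with a median difference of 0.29, and the exception was horse 12 for 35 of them and horse 6 for 34. Horse 9 was the exception for only 5. Without horse 12 the list would have 81 genes and without horse 6 it would have 80. Under TMM scaling, 310 genes were higher in 10 of the 11 horses, and the exception was horse 12 for 75 of them, horse 9 for 44 and horse 6 for 35. Horse 12 was thus the most frequent exception under both scalings, whereas the place of horse 9 depended on the scaling. Genes near the limit differed little on either side. The gene of rank 46 was inside by 0.00207 in horse 9, with a median rise of 0.03 at a mean rest level of 153 CPM. The gene nearest to the limit on the outside had a difference of -0.000584 in horse 7 and a median difference of 0.13, larger than that of rank 46.

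The 46 genes did not rise as 1 block across horses. The correlation of the rise over the 11 horses had a median of 0.01 over the 1035 pairs of the 46 genes (quartiles -0.23 and 0.27), and 522 pairs were above 0. Over all pairs of the 11230 genes the median was 0.08, and it was 0.19 over pairs of the 113 genes that were lower in every horse. The order of these medians depended on the scaling. With TMM-normalized library sizes, the median was 0.06 over pairs of the 46 genes and 0.00 over all pairs. Single pairs ranged from -0.85 to 0.92 with total counts and from -0.83 to 0.93 with TMM, where 585 of the 1035 pairs were above 0. Correlations over 11 horses are imprecise, and all pairs share the same 22 libraries.

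Few pairs rose closely together. The correlation was above 0.8 in 3 of the 1035 pairs (0.290%) and in 0.921% of all pairs of genes, and with TMM-normalized library sizes in 5 pairs (0.483%) and 0.765% of all pairs. The 3 pairs were ranks 8 and 18 (r = 0.92), ranks 7 and 19 (r = 0.91) and ranks 43 and 46 (r = 0.89), each over 11 horses. Without the horse that lowered it most, the correlation was 0.84 in the first pair (without horse 1), 0.90 in the second (without horse 5) and 0.86 in the last (without horse 6). Ranks 8 and 14 went in opposite order, with r = -0.85 and -0.77 without horse 1. The pairs joined genes of different size of rise, such as ranks 8 and 18 with median rises of 0.95 and 0.54. ENSECAG00000012118 and ENSECAG00000008270 had r = 0.59, the highest correlation of ENSECAG00000012118 with any of the other 45 genes, and for ENSECAG00000008270 the highest was 0.79 with rank 46. Both values rest on horse 6, which had the largest rise in all 3 genes, and without it they were 0.21 and 0.32. Rank 39 had the highest mean correlation with the other genes of the list, which was only 0.14.

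**Figure D5:**
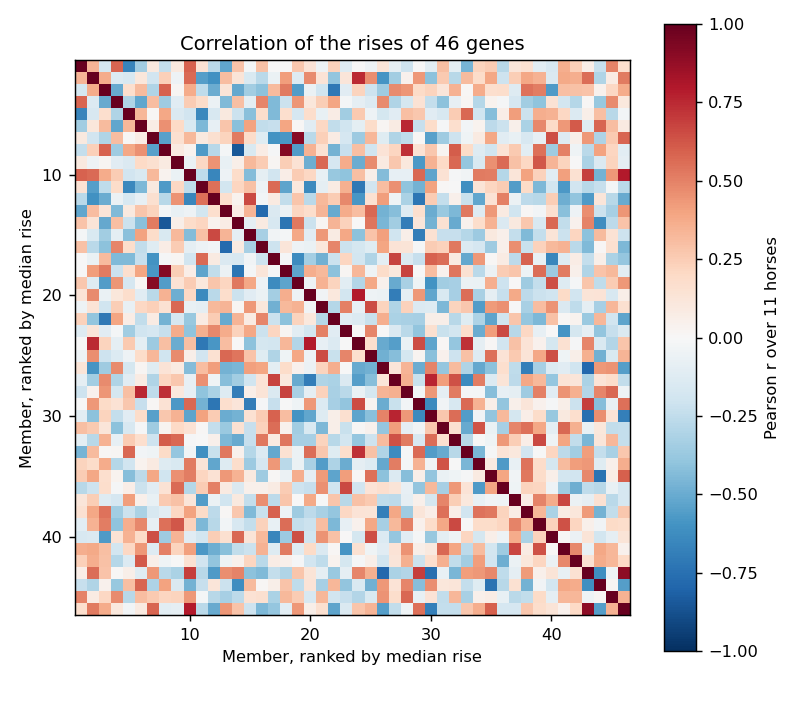
Pearson correlation over 11 horses between the rises of each pair of the 46 genes, ordered on both axes by median rise. Red is a positive and blue a negative correlation, and the diagonal is each gene with itself. The colors form no large block, with a median r of 0.01 over the 1035 pairs.

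The rises were also described by a principal component analysis, with each gene centered over horses. The leading component held 25.6% of the variance between horses and the next 18.4%. Of the leading component, 61.3% came from the 5 genes with the largest median rise, so it reflects mainly the uneven rise of those genes. Horses 8 and 9 were at one end and horses 12, 1 and 2 at the other. When each gene was scaled to the same variance, the leading component held 19.6% and the order of the horses changed, with horses 1 and 12 at one end and horses 6 and 3 at the other. The 113 genes that were lower in every horse had a similar share, 24.3%, on their own leading component, without scaling.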

How the data were processed

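Poly(A) RNA-Seq libraries from 23 gluteal biopsies were analyzed. The authors aligned the paired-end reads with STAR to Ensembl horse coding sequences, counted reads per gene with STAR, kept genes by a CPM filter over horse samples and deposited the raw counts, which were used as deposited. The strand setting of the counting was not given in the sources used here, so reads of overlapping antisense genes and of near-identical paralogs are uncertain. Each column was matched to its sample by name.

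CPM were computed with total counts, and differences were taken on log2(CPM + 0.5). Rest and after exercise libraries were paired because their titles name the same animal. Differential expression was tested with edgeR 4.0.16 (glmQLFit, glmQLFTest, TMM) in R 4.3.3, with horse as a block and Benjamini-Hochberg adjustment at 0.05 over 11330 genes. The fit was tested on simulated counts with planted changes larger than most rises here and no differences between horses. That test therefore did not cover the horse terms or the smaller rises. Alternatives used DESeq2 1.42.0, limma 3.58.1 with voom, other library sizes, pseudocounts of 2 and 0.05, a minimum of 10 counts, and each horse left out. Descriptions and plots were made with Python 3.11.15, numpy 2.4.6, pandas 2.3.3 and matplotlib 3.10.9.

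The 2 identifiers printed were fixed by rule as the largest median rise and, after it, the largest lowest rise. The members and lists were chosen with earlier results of these data known. Gene lists and cell type markers could not be used because no identifier was matched to a name, and no length or sequence was used. Total counts were 22528109 to 29452440, and 3 counts were at most 0.133 CPM.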

Additional observations from a re-analysis of the deposited data

How the results depend on the processing

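The number of genes higher in every horse (46) was 82 with TMM-normalized library sizes and 87 with DESeq2 size factors, and 51 to 81 with 1 horse left out, where the rule has fewer horses to meet. It was 44 to 55 with the other pseudocounts, the minimum of 10 counts, other numbers of abundant genes left out and a total without the 10 most abundant genes. The median of the mean rise (0.47) was 0.51 with TMM-normalized library sizes and 0.51 with DESeq2 size factors. With a pseudocount of 2, which lowers the rise of genes with low counts by construction, it was 0.40. With 1 horse left out it was 0.44 to 0.49. The median correlation of the rises (0.00868) was 0.0598 with TMM, and it was -0.00991 to 0.0268 with 1 horse left out. The cause of these changes was not tested. The resting level was 9.28 CPM, and 7.26 CPM in the rest library of the unpaired horse alone. The median of all genes was also lower in that library, at 7.91 CPM in place of 9.23 CPM.

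With no replicate block, 28 of the 46 genes were called higher in place of 44, and 70 of the 11330 genes in place of 313. The horse terms are not part of that fit. Called members were 42 to 44 and members that differed between horses 18 to 24 in the other fits, with 1 horse left out or with another tool, while over all genes 156 to 369 were called higher and 2872 to 4661 differed between horses. The mean rise of the 2 identified genes stayed between 1.70 and 2.22 for ENSECAG00000012118 and between 0.72 and 0.86 for ENSECAG00000008270. Some results were added after seeing the data. These were horse 11 at rest, the overlap of the groups and the share of pairs with r above 0.8, under total counts and TMM. Also added was the number of the 46 genes higher in every horse under TMM and DESeq2 size factors. The TMM values for each horse left out of the choice and the single pairs read without 1 horse were further additions. Depth limits the genes near or under 1 CPM, since 3 counts are about 0.1 CPM.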
